A study of Mus musculus with 12 samples.

Results

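The genes studied here are those of the MHC class II pathway, namely the chain genes H2-Aa, H2-Ab1 and H2-Eb1, the invariant chain gene Cd74, the peptide exchange genes H2-DMa and H2-DMb1, and the transactivator gene Ciita. Every probe set of the array whose only annotated gene symbol was 1 of these 7 was taken, which gave 14 probe sets of 6 genes out of 34945 probe sets with 1 symbol and 45101 in all. H2-DMb1 had none, because both of its probe sets also carry the symbol of its neighbour H2-DMb2, and those 2 were left out. Of the 14, 10 passed a filter on dim signals and were tested. The 4 that did not were 1 of 4 H2-Aa probe sets and the 3 Ciita probe sets.

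Transcripts were measured on Affymetrix Mouse Genome 430 2.0 arrays in immature mouse thymocytes that lack CD4 and CD8, called double negative (DN). The mice were C57BL/6 females of 5 to 6 weeks, for which the labels name no transgene and no treatment. CD4+ and CD8+ cells were removed on magnetic columns, cells positive for TCR gamma-delta, NK1.1, CD3, CD4 or CD8 were gated out, and the rest were sorted as DN2 (CD44+CD25+), DN3 (CD44-CD25+) and DN4 (CD44-CD25-). In each of 4 sorts the cells of 4 mice were pooled (16 mice in all) and gave 1 array per stage, so the 12 arrays form 3 groups of 4, and the replicate number is that of the sort. The gate named no marker of B cells, dendritic cells or macrophages.

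MHC class II molecules are pairs of an alpha and a beta chain that present peptides from endosomes to CD4 T cells. In the mouse they are made mainly by B cells, dendritic cells, macrophages and thymic epithelium, and mouse T cells are known to make little of them. The chains are assembled on the invariant chain, whose remnant is later exchanged for peptide by H2-DM, and their genes are switched on together by CIITA, a coactivator that binds no DNA itself but docks on factors sitting on the X and Y boxes of their promoters. RFX proteins bind the X box and NF-Y binds the Y box.

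The promoters below are of genes within 1 cluster on chromosome 17. Whether their sequences have a part in how the signals ran across the stages was not tested. Each is the stretch of 250 bases before the annotated start, from RefSeq on GRCm38.p6, read 5′ to 3′ on the gene's own strand. Capitals mark GNAAC, a core of the X box, and TGATTGG, the Y box, where both lie on the same strand without overlap and 15 to 35 bases apart. These limits were set after these promoters had been seen.
H2-Aa, chr17:34287824-34288073, minus strand: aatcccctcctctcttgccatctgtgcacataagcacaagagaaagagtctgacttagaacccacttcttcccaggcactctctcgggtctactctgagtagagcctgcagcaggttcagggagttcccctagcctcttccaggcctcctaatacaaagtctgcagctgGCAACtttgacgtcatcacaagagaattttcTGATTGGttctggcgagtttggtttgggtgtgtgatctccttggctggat
H2-Eb1, chr17:34305617-34305866, plus strand: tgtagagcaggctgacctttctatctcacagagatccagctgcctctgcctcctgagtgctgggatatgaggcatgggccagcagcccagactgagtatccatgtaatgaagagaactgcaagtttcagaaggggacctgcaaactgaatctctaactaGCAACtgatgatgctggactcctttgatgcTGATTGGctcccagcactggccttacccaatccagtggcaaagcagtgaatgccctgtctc
H2-Ob, chr17:34238655-34238904, plus strand: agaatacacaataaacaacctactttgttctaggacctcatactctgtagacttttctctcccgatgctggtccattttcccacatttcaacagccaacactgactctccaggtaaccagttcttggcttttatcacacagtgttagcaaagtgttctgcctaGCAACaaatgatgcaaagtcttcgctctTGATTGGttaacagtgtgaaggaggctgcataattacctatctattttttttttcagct
H2-DMa, chr17:34122582-34122831, plus strand: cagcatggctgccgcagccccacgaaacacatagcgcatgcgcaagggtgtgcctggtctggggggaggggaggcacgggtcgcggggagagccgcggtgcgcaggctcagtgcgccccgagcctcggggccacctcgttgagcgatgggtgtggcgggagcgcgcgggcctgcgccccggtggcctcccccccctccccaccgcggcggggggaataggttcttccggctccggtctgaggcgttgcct

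The Y box began 50 bases before the start in H2-Aa, 61 in H2-Eb1 and 59 in H2-Ob, with 26, 25 and 23 bases between the X core and the Y box. The same pair was found before H2-DMb1 and H2-Oa (26 bases apart in each) and before H2-Eb2 (25 bases apart). It was not found before either annotated start of H2-DMa, nor before H2-DMb2, where TGATTGG and GNAAC each occur once but not as such a pair. Over 32851 promoters of this length, searched on both strands, TGATTGG was in 7.23%, GNAAC in 79.6% and the pair in 0.484%. A match of letters is a description, not a binding site. No promoter entry was found for H2-Ab1 or Ciita, and promoters of Cd74 and H2-Ea are not reported here. Along chromosome 17 the genes run in the order H2-Oa, H2-DMa, H2-DMb2, H2-DMb1, H2-Ob, H2-Ab1, H2-Aa, H2-Eb1, H2-Eb2 and H2-Ea, while Ciita is on chromosome 16 and Cd74 on chromosome 18.

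Levels are given as log2 of the quantile-normalized signal plus an offset of 5.56, which understates the change of dim probe sets, and the filter level of 4.70 corresponds to a signal of 20.5. Differences were tested with limma over all 20374 probe sets that passed the filter, with Benjamini-Hochberg adjustment and a threshold of 0.05. A change called here is one past that threshold. A second fit, called blocked, compared the stages within sorts by adding the sort number as a term. The arrays differed in brightness, with median deposited signals from 15.1 to 28, and the lowest were DN4 replicate 1 (15.1), DN2 replicate 2 (16.7) and DN4 replicate 4 (17.0). Among the sort markers, Cd44 fell by 3.69 ± 0.32 (SE, n = 4 arrays a stage) from DN2 to DN3 (limma adjusted p = 2.3e-05), Il2ra, the gene of CD25, fell by 3.56 ± 0.22 from DN3 to DN4 (limma adjusted p = 3.52e-06), and Cd4 stayed below the filter level on all 12 arrays. The CD8 genes did not stay low, although CD8+ cells had been gated out. Cd8b1 had stage means of 3.14, 4.51 and 8.28 and rose by 3.77 ± 0.30 from DN3 to DN4 (limma adjusted p = 2.1e-05), above the filter level on 4 of 4 DN4 arrays, and Cd8a read 4.77, 5.25 and 6.22 and rose by 0.97 ± 0.26 (limma adjusted p = 0.0292). The Cd8a call ended without DN3 replicates 1 or 3 or DN4 replicates 1 or 3 (adjusted p up to 0.0821), with arrays centred on their median (0.0654), with no filter (0.0656), without the 3 arrays of lowest median signal (0.14) and with no normalization (0.46, adjusted p = 0.198).

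The brightest probe sets of the chain genes, Cd74 and H2-DMa were above the filter level on all 12 arrays, and that of Ciita on 1. By their brightest probe sets, the chain genes and Cd74 had their lowest mean in DN3, whereas H2-DMa had its lowest in DN4. Only Cd74, which rose 2.17-fold from DN3 to DN4, and H2-DMa, which fell, passed the test in the fit without the sorts. With sorts blocked, H2-Aa, H2-Ab1 and H2-Eb1 also passed from DN3 to DN4. In bulk samples such as these, fewer cells of a type and less RNA per cell cannot be told apart.

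**Figure D1:**
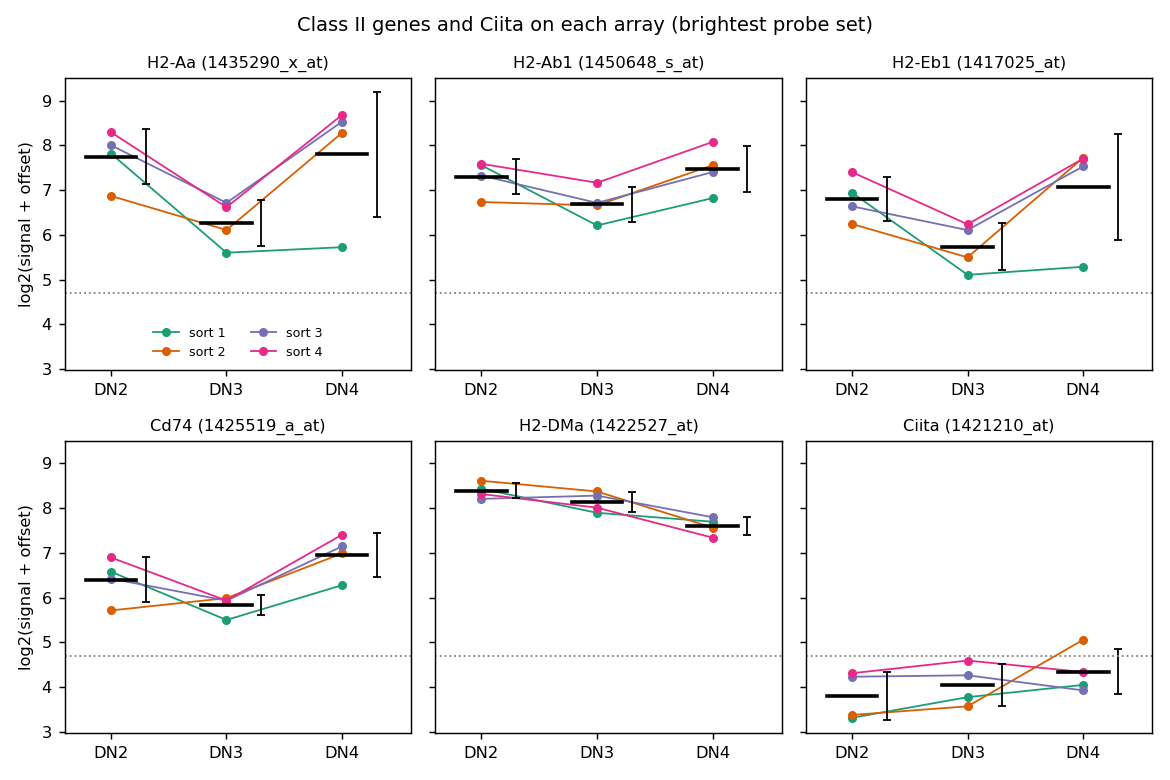
Levels of the brightest probe set of H2-Aa, H2-Ab1, H2-Eb1, Cd74, H2-DMa and Ciita, as log2 of normalized signal plus the offset, in DN2, DN3 and DN4. Points are arrays, lines join arrays of a sort, bars are means with SD over 4 arrays and the dotted line is the filter level. H2-Aa and H2-Eb1 are lower in DN4 replicate 1 (5.72 and 5.29) than in the other DN4 arrays, and Ciita lies near or under the filter level.

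H2-Aa encodes the alpha chain of the I-A molecule. Its brightest probe set, 1435290_x_at, read 7.82, 6.87, 8.0 and 8.29 in DN2 replicates 1 to 4, then 5.60, 6.11, 6.72 and 6.62 in DN3, and 5.72, 8.28, 8.53 and 8.68 in DN4. All DN3 arrays lay below all DN2 arrays, and 3 of 4 DN4 arrays lay above all DN3 arrays, while DN4 replicate 1 stood at the level of DN3. In the deposited signals, before any normalization, the same probe set read 292, 82.7, 303 and 320 in DN2, 58.7, 68.7, 123 and 86.8 in DN3, and 32.2, 239, 313 and 331 in DN4. The DN3 mean was 1.48 ± 0.57 (SE, n = 4 arrays a stage) below that of DN2, in 4 of 4 sorts, which did not pass the test (limma adjusted p = 0.146, and 0.0613 with sorts blocked). From DN3 to DN4 the difference was 1.54 ± 0.57, in 4 of 4 sorts, with an adjusted p of 0.0992 without and 0.0402 with sorts blocked in limma. Within sorts it was 0.12 in sort 1 against 2.17, 1.81 and 2.06 in sorts 2, 3 and 4. DN4 and DN2 differed by 0.057 ± 0.57 (limma adjusted p = 0.952).

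The other probe sets of H2-Aa were dimmer. Probe set 1438858_x_at read 6.50, 5.52, 6.34 and 7.07 in DN2, 5.27, 4.97, 5.93 and 6.00 in DN3, and 4.34, 7.16, 7.16 and 7.31 in DN4, and 1452431_s_at had means of 4.99, 4.27 and 5.33. Both were lower in DN3 than in DN2 in 4 of 4 sorts, and neither passed the test in any comparison. The DN4 to DN3 difference was 0.95 ± 0.59 for the first (limma adjusted p = 0.315) and 1.07 ± 0.43 for the second (limma adjusted p = 0.128). Probe set 1443783_x_at was under the filter level on all 12 arrays, with stage means of 3.68, 3.96 and 3.62.

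H2-Ab1 encodes the beta chain that pairs with H2-Aa. Probe set 1450648_s_at read 7.55, 6.73, 7.32 and 7.59 in DN2, 6.21, 6.66, 6.71 and 7.16 in DN3, and 6.82, 7.56, 7.40 and 8.08 in DN4. Within every sort the DN3 array was the lowest of the 3, although the groups overlapped. DN3 was 0.61 ± 0.28 (SE, n = 4) below DN2 (limma adjusted p = 0.224), and DN4 was 0.78 ± 0.28 above DN3, with a limma adjusted p of 0.0917, or 0.0342 with sorts blocked. The 4 sorts gave 0.61, 0.90, 0.69 and 0.91 for the latter, so sort 1 stood less apart here than for H2-Aa.

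Probe set 1451721_a_at of H2-Ab1 was above the filter level on 4 DN2 arrays, 0 DN3 arrays and 3 DN4 arrays. It read 5.14, 4.90, 5.40 and 5.56 in DN2, 4.22, 4.68, 4.53 and 4.64 in DN3, and 4.15, 6.03, 5.59 and 6.14 in DN4. All DN2 arrays exceeded all DN3 arrays, and DN4 replicate 1 was the lowest array of the 12. DN4 was 0.96 ± 0.36 above DN3, higher in 3 of 4 sorts (limma adjusted p = 0.0995, and 0.0455 with sorts blocked). The third probe set, 1425477_x_at, passed the filter through 1 DN2 and 3 DN4 arrays, with means of 3.98, 3.94 and 4.70, and no comparison of it passed the test.

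H2-Eb1 encodes the beta chain of the I-E molecule, which C57BL/6 mice do not carry on their cells because their alpha chain gene H2-Ea is defective. Its probe set read 6.94, 6.24, 6.64 and 7.40 in DN2, 5.11, 5.50, 6.11 and 6.24 in DN3, and 5.29, 7.72, 7.53 and 7.70 in DN4. The DN2 and DN3 arrays did not overlap (the highest DN3 array, 6.24, lay just under the lowest DN2 array), and again DN4 replicate 1 sat among the DN3 arrays. DN3 was 1.07 ± 0.49 (SE, n = 4) below DN2 (limma adjusted p = 0.229). DN4 was 1.32 ± 0.49 above DN3 in 4 of 4 sorts, with a limma adjusted p of 0.101, or 0.0484 with sorts blocked.

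Cd74 encodes the invariant chain, which fills the peptide groove during assembly and carries class II to endosomes. Its probe set read 6.58, 5.71, 6.42 and 6.90 in DN2, 5.50, 5.99, 5.93 and 5.93 in DN3, and 6.28, 6.99, 7.14 and 7.40 in DN4. Every DN4 array, replicate 1 included, exceeded every DN3 array, and DN2 overlapped with both. Cd74 rose by 1.12 ± 0.27 (SE, n = 4), or 2.17-fold, from DN3 to DN4 in 4 of 4 sorts (limma adjusted p = 0.0202). This call ended with arrays centred on their median (0.89, limma adjusted p = 0.0612) and with no normalization between arrays (0.57, adjusted p = 0.225), and also without DN3 replicate 1 (adjusted p = 0.0581) or DN4 replicate 4 (adjusted p = 0.0598). DN3 was 0.56 ± 0.27 below DN2 (limma adjusted p = 0.25), and DN4 was 0.55 ± 0.27 above DN2 (adjusted p = 0.148).

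H2-DMa encodes the alpha chain of H2-DM, the endosomal molecule that trades the invariant chain remnant for peptide. Probe set 1422527_at read 8.43, 8.61, 8.20 and 8.31 in DN2, 7.89, 8.37, 8.28 and 8.01 in DN3, and 7.69, 7.56, 7.79 and 7.34 in DN4. Every DN4 array lay below every array of the other stages, and DN4 replicate 1 was within the range of its stage. H2-DMa fell by 0.79 ± 0.15 (SE, n = 4), or 1.73-fold, from DN2 to DN4 (limma adjusted p = 0.0021) and by 0.54 ± 0.15 from DN3 to DN4 (limma adjusted p = 0.0367), each in 4 of 4 sorts. DN3 was 0.25 ± 0.15 below DN2 (adjusted p = 0.372). The call between DN4 and DN3 was marginal. It ended without DN3 replicate 2 (limma adjusted p = 0.109), DN3 replicate 3 (0.0975), DN4 replicate 1 (0.056), DN4 replicate 2 (0.0776) or DN4 replicate 4 (0.104), without the 3 arrays of lowest median signal (0.195), with no filter (0.0929) and when the 8 arrays of these stages were fitted alone (0.0534).

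Probe set 1459872_x_at of H2-DMa read 5.23, 5.14, 5.00 and 5.09 in DN2, 4.86, 4.85, 4.76 and 4.13 in DN3, and 4.81, 3.01, 2.75 and 3.86 in DN4. All DN2 arrays exceeded all others, and DN4 replicate 1 was the highest of its stage here. It fell by 1.51 ± 0.36 (SE, n = 4) from DN2 to DN4 in 4 of 4 sorts (limma adjusted p = 0.0081), a call that was kept with any single array left out. In DN4 it was above the filter level on 1 of 4 arrays, with a mean of 3.60 and deposited signals of 16.4, 2.19, 1.19 and 7.60. The size of that fall is therefore uncertain. DN4 was also 1.04 ± 0.36 below DN3, which did not pass (limma adjusted p = 0.0803).

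Ciita encodes the coactivator on which most class II transcription depends. Its brightest probe set, 1421210_at, read 3.31, 3.38, 4.23 and 4.31 in DN2, 3.77, 3.57, 4.26 and 4.59 in DN3, and 4.05, 5.06, 3.93 and 4.34 in DN4. It passed the filter level on 1 of 12 arrays, DN4 replicate 2, and 1421211_a_at and 1447075_at passed it on 0 of 12. The stage means of these 2 were 3.59, 3.78 and 3.23 and 2.95, 2.87 and 3.0. With no filter on dim signals, the DN4 to DN3 difference of 1421210_at was 0.29 ± 0.33 (limma adjusted p = 0.704). At such signals a change of Ciita was not detectable, which does not show that the transcript is absent.

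**Figure D2:**
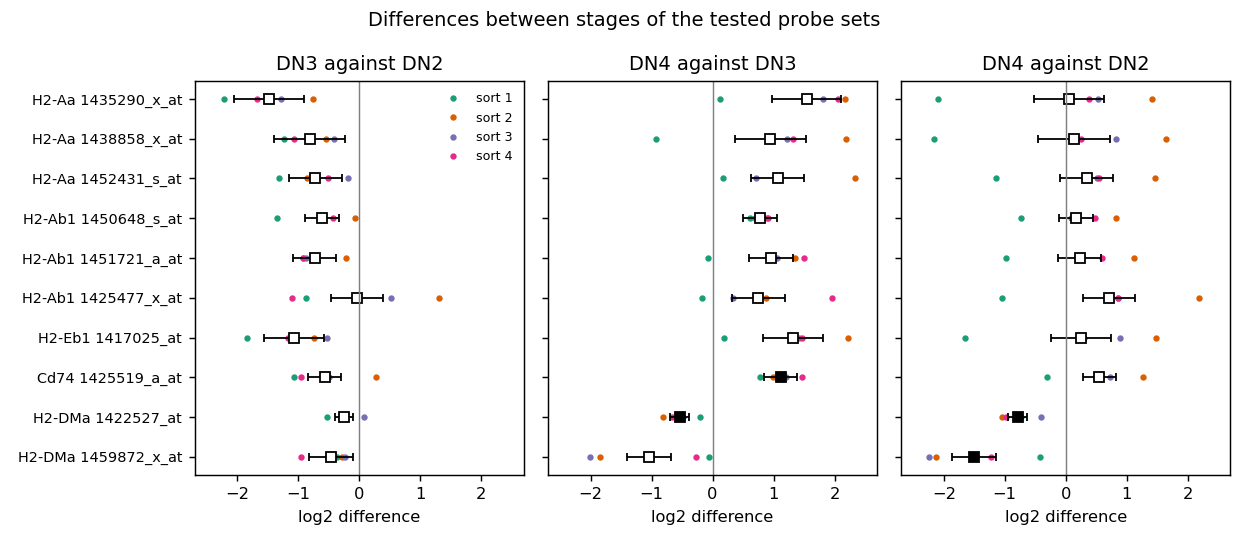
Differences between stages of the 10 tested probe sets, on the log2 scale. Squares with bars are the fitted difference ± SE, filled where the adjusted p was below the threshold, and dots are the 4 sorts. From DN3 to DN4 the filled squares are Cd74 (1.12) and 1422527_at of H2-DMa (-0.54), and the dots of sort 1 lie nearest to 0 or below for H2-Aa and H2-Eb1.

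From DN2 to DN3, 0 of the 10 tested probe sets were called by limma, against a background of 8.02% of all probe sets tested (3.65% higher and 4.37% lower). At an unadjusted p under 0.05 there were 2, and blocking the sorts also gave 0, with 16.4% of all probe sets called. All 10 had a negative difference, 7 were lower in 4 of 4 sorts, and the median was -0.67 against 0.03 over all probe sets tested. In 4 of the 10 every DN3 array lay below every DN2 array, which was so for 7.63% of all probe sets, with 7.83% the other way. These 10 probe sets come from 5 genes and are not independent of each other. The shares of all probe sets with a negative difference, with an unadjusted p under 0.05 or lower in 4 of 4 sorts are not given here. Those counts thus cannot be set against the rest of the array. The count rested on DN4 replicate 1, which belongs to neither stage compared but enters the shared estimate of spread. It was singled out after its low values for these probe sets had been seen. Without it, H2-Aa 1435290_x_at (limma adjusted p = 0.0144), H2-Ab1 1451721_a_at (0.0318) and H2-Eb1 (0.0394) passed as lower in DN3, with the same differences as before, and 7.97% of all probe sets were called.

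From DN3 to DN4, limma called 1 of the 10 as higher (Cd74) and 1 as lower (H2-DMa 1422527_at), against a background of 12.4% of all probe sets called (5.17% higher and 7.27% lower). At an unadjusted p under 0.05 there were 8. In 8 of the 10 the difference was positive, with a median of 0.95 against 0.04 over all probe sets, and 5 were higher in 4 of 4 sorts. The shares of all probe sets for these counts are not given here, so the counts cannot be set against the rest of the array. Arrays of the 2 stages did not overlap for 1 higher and 1 lower probe set, as for 11.1% and 10.1% of all. Blocking the sorts gave 6, 5 higher and 1 lower, while the calls over all probe sets went from 2534 to 5131, or 25.2%. Without DN4 replicate 1, 8 were called, 7 of them higher, where 9.08% of all probe sets were called. These were H2-Aa 1435290_x_at (2.24, limma adjusted p = 0.00288), 1438858_x_at (1.67, 0.0126) and 1452431_s_at (1.51, 0.0188), H2-Ab1 1450648_s_at (0.99, 0.0408) and 1451721_a_at (1.40, 0.00197), H2-Eb1 (1.91, 0.00368) and Cd74 (1.34, 0.00854), with H2-DMa 1459872_x_at (-1.45, 0.00689) as the lower one. Each array was left out in turn. The fit without DN4 replicate 1 is detailed because that array had been seen to be low for the chain genes. Leaving out a low DN4 array raises the DN4 mean of those genes and narrows their spread, so the calls of that fit are not independent support. Without DN4 replicate 4, 0 were called, against 7.84% of all. Among all calls of this comparison 41.6% were higher in DN4 after quantile normalization, 12.4% with arrays centred on their median and 1.20% with no normalization, where the median of all probe sets was -0.43.

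From DN2 to DN4, limma called 2 of the 10, both probe sets of H2-DMa and both lower, against 29.9% of all probe sets called (16.1% higher and 13.8% lower). The dimmer of them, 1459872_x_at, was above the filter level on 1 of 4 DN4 arrays. The median difference was 0.20 against 0.07 over all. For these 2 the stages did not overlap, as for 13.3% of all probe sets in that direction and 16% in the other. H2-Aa, H2-Ab1 and H2-Eb1 differed by 0.057, 0.16 and 0.25 by their brightest probe sets, and these signs turned with no normalization between arrays (-0.35, -0.29 and -0.19). Without DN4 replicate 1 the count was 4, as H2-Ab1 1451721_a_at (0.67, limma adjusted p = 0.0278) and Cd74 (0.78, 0.0397) passed as higher in DN4, against 25.9% of all probe sets called in that fit. That array was singled out after its low values had been seen. Blocking the sorts left the count at 2, while 42.2% of all were called. Without the 3 arrays of lowest median signal, a choice made after seeing the data, 1422527_at of H2-DMa no longer passed (-0.64, limma adjusted p = 0.0532).

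The probe sets of the chain genes and Cd74 varied together from array to array. Leaving out 1425477_x_at, which was mostly under the filter level, the 21 pairs among 7 probe sets had Pearson correlations of 0.79 to 0.98 over 12 arrays. Once stage means were subtracted the correlations were 0.76 to 0.97. Against the 2 probe sets of H2-DMa the 14 pairs lay between -0.58 and -0.23, and between -0.76 and -0.22 after subtraction. In the latter, the brighter 1422527_at lay between -0.41 and -0.22 and the dimmer 1459872_x_at between -0.76 and -0.43. With each other these 2 correlated at 0.70, but at 0.015 after subtraction. The dimmer was above the filter level on 1 of 4 DN4 arrays. These are descriptions, since the points share arrays, sorts and probe sets of the same gene.

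The mean of the centred levels of H2-Aa, H2-Ab1, H2-Eb1 and Cd74 was used as a class II reference for each array. It stood at 0.38, -0.45, 0.26 and 0.71 in DN2, -1.23, -0.78, -0.47 and -0.35 in DN3, and -0.81, 0.80, 0.81 and 1.13 in DN4. Sort 4 was the highest and the DN3 array the lowest within each sort. Of 20364 other probe sets, those most alike in level over the 12 arrays were of Parp1, a DNA repair enzyme (Pearson r = 0.934), Tmem69 (0.92), Zfp384 (0.901), Smap1 (0.896), Ctnnal1 (0.884), Helb (0.876), Msl3 (0.876), Rnaseh2a (0.872), Ccr7, a chemokine receptor (0.867), and Spidr (0.863). Parp1 read 10.46, 10.25 and 10.52, Helb 7.57, 7.31 and 7.92, and Ccr7 4.86, 4.41 and 5.44 in DN2, DN3 and DN4. The highest of so many correlations over 12 arrays are high by selection.

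The other genes of the class II cluster were 5, all measured. From DN2 to DN3, 1 fell and 0 rose, from DN3 to DN4 none was called (2 at an unadjusted p under 0.05), and from DN2 to DN4, 1 rose and 1 fell, with medians of -0.10, 0.17 and -0.08. Limma called 8.02%, 12.4% and 29.9% of all probe sets tested in these comparisons. The share of all at an unadjusted p under 0.05 is not given here. H2-Ob encodes the beta chain of H2-DO, an inhibitor of H2-DM found mainly in B cells. It read 7.56, 7.31, 7.03 and 7.35 in DN2, 4.65, 4.90, 5.38 and 5.10 in DN3, and 3.45, 4.88, 5.33 and 5.70 in DN4. All DN2 arrays lay above all others, and DN4 replicate 1 was again the lowest. H2-Ob fell by 2.30 ± 0.38 (SE, n = 4) from DN2 to DN3 (limma adjusted p = 0.00274) and was 2.47 lower in DN4 than in DN2 (limma adjusted p = 5.07e-04), while DN4 and DN3 differed by -0.17 (adjusted p = 0.815). Its promoter, printed above, holds the same pair of X core and Y box as those of H2-Aa and H2-Eb1. A part of this pair in the signals was not tested.

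H2-Oa encodes the alpha partner of H2-Ob and was above the filter level on 12 of 12 arrays. It read 6.41 to 7.0 in DN2, 6.63 to 6.88 in DN3 and 6.95 to 7.38 in DN4, so DN2 overlapped with both later stages. It rose by 0.47 ± 0.16 (SE, n = 4) from DN2 to DN4 in 3 of 4 sorts (limma adjusted p = 0.04), with no normalization between arrays the difference was 0.0078, and leaving out 1 array ended the call in 8 of 12 cases (adjusted p up to 0.107). Those arrays were DN2 replicates 3 and 4, DN3 replicates 2, 3 and 4 and DN4 replicates 2, 3 and 4. H2-Eb2 was above the filter level on 4 arrays, with a DN4 to DN3 difference of 1.28 ± 0.49 (limma adjusted p = 0.106, and 0.0424 with sorts blocked). H2-DMb2, a beta chain of H2-DM, had means that differed by at most 0.25 between stages. H2-Ea, although defective in C57BL/6 mice, was above the filter level on 9 arrays. It read from 4.23 to 6.27 with no order by stage. Its highest value lay above the DN3 means of H2-Eb1 (5.74) and Cd74 (5.84). Whether such signals come from the gene's transcript was not tested, and passing the filter level does not by itself show it.

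**Figure D3:**
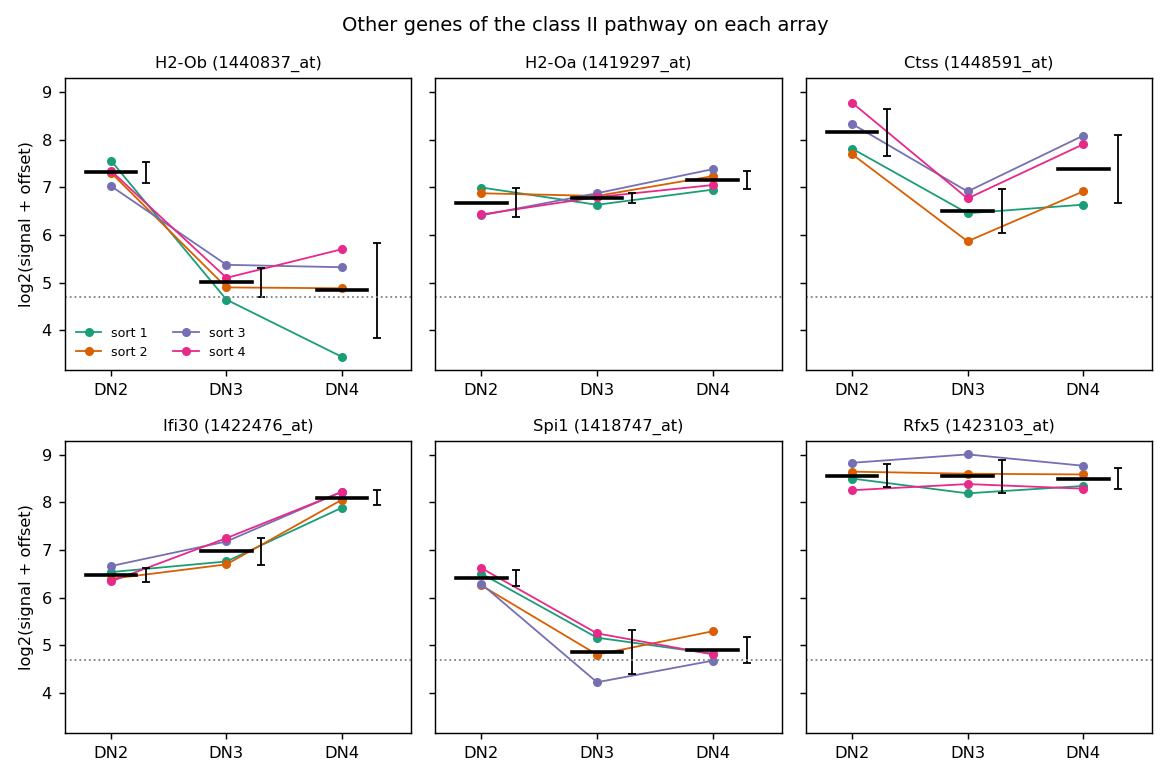
Levels of H2-Ob, H2-Oa, Ctss, Ifi30, Spi1 and Rfx5 by stage, as log2 of normalized signal plus the offset. Points are arrays, lines join arrays of a sort, bars are means with SD over 4 arrays and the dotted line is the filter level. H2-Ob and Spi1 are higher in all 4 DN2 arrays than in any other, Ifi30 steps up through the stages, and Rfx5 shows no such step.

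Genes of peptide processing and class II turnover numbered 9, of which 8 were measured and Marchf1 was not. From DN2 to DN3, 3 fell and 0 rose, from DN3 to DN4, 1 rose and 0 fell, and from DN2 to DN4, 2 rose and 2 fell, with medians of -0.13, 0.34 and -0.27. With sorts blocked the counts were 2 higher and 3 lower, 3 higher and 1 lower, and 2 higher and 4 lower. Of all probe sets tested, 8.02%, 12.4% and 29.9% were called without the block, and 16.4%, 25.2% and 42.2% with it. Ctss, cathepsin S, trims the invariant chain in antigen-presenting cells. It read 7.81, 7.70, 8.33 and 8.77 in DN2, 6.46, 5.87, 6.91 and 6.77 in DN3, and 6.64, 6.91, 8.08 and 7.90 in DN4. Like the chain genes it was lowest in DN3 in every sort. Ctss fell by 1.65 ± 0.36 (SE, n = 4) from DN2 to DN3 (limma adjusted p = 0.0135), and DN4 was 0.88 ± 0.36 above DN3 (limma adjusted p = 0.128, and 0.0097 with sorts blocked).

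Ifi30, a thiol reductase that opens disulfide bonds of antigens, read 6.54, 6.40, 6.66 and 6.34 in DN2, 6.76, 6.70, 7.18 and 7.25 in DN3, and 7.89, 8.06, 8.22 and 8.22 in DN4. The stages did not overlap. Ifi30 rose by 1.12 ± 0.15 (SE, n = 4) from DN3 to DN4 (limma adjusted p = 8.15e-04) and by 1.61 ± 0.15 from DN2 to DN4 (limma adjusted p = 1.41e-05), and the first of these ended with no normalization between arrays (0.58, adjusted p = 0.103). Ctsl, cathepsin L, which trims the invariant chain in thymic epithelium, rose by 0.85 ± 0.17 from DN2 to DN4 (limma adjusted p = 0.0025), a call that ended with no normalization (0.58, adjusted p = 0.0796).

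Marchf8, a ubiquitin ligase that removes class II from the surface, fell by 0.97 ± 0.22 (SE, n = 4) from DN2 to DN3 (limma adjusted p = 0.0157) and was 0.79 lower in DN4 than in DN2 (limma adjusted p = 0.0165). Both calls ended without the 3 arrays of lowest median signal (adjusted p = 0.0562 and 0.14). Cst3, cystatin C, an inhibitor of cathepsins, fell by 0.56 ± 0.14 from DN2 to DN3 (limma adjusted p = 0.0278) and by 0.40 from DN2 to DN4 (0.0461). The first of these ended without DN2 replicates 1, 2 or 3 or DN3 replicates 1, 2 or 4 (adjusted p up to 0.0827), without the 3 arrays of lowest median signal (0.0508), with no filter (0.0796), with arrays centred on their median (-0.43, adjusted p = 0.109) and with no normalization (-0.40, adjusted p = 0.448). The second was kept in 2 of 12 fits with 1 array left out (adjusted p up to 0.132), and ended with centring (0.0722), with no filter (0.109) and without those 3 arrays (0.245). Ctsb, Ctsd and Lgmn, endosomal proteases, had DN4 to DN3 differences of -0.27, -0.45 and 0.65 and were not called in the fit without the sorts. With sorts blocked, Ctsd was called as lower in DN4 than in DN3 (limma adjusted p = 0.0319) and than in DN2 (0.0343). With no normalization, Ctsb (-0.69, limma adjusted p = 0.034) and Ctsd (-0.90, 0.0159) were called as lower in DN4 than in DN3, and Lgmn was called as higher without DN2 replicate 2 (0.0445).

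The promoter factors that CIITA docks on were Rfx5, Rfxap and Rfxank of the RFX complex, Creb1, and Nfya, Nfyb and Nfyc of NF-Y. All 7 were measured and bright, and limma called 0 of 7 in each comparison, against 8.02%, 12.4% and 29.9% of all probe sets tested. There were 0, 0 and 2 at an unadjusted p under 0.05, with medians of 0.0021, 0.10 and 0.049. Rfx5 read from 8.25 to 8.83 in DN2, 8.19 to 9.0 in DN3 and 8.28 to 8.77 in DN4, so its stages overlapped throughout. The largest differences were between DN4 and DN2, at 0.35 ± 0.13 for Creb1 (limma adjusted p = 0.0625), -0.43 ± 0.17 for Nfya (0.0754) and 0.30 ± 0.14 for Rfxap (0.138). With sorts blocked these 3 passed (limma adjusted p = 0.0212, 0.02 and 0.0258), where 42.2% of all probe sets were called.

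Genes that act upstream of Ciita, such as the interferon-gamma receptor chains, Jak kinases and Irf factors, numbered 12, of which 11 had a probe set used here and 9 were measured. From DN2 to DN3, 1 fell, from DN3 to DN4, 1 fell, and from DN2 to DN4, 1 rose and 3 fell, with medians of -0.16, 0.03 and -0.32. Over all probe sets tested, 8.02%, 12.4% and 29.9% were called. Spi1 encodes PU.1, a factor of myeloid and B cells that is shut off as T cells commit. It read 6.50, 6.26, 6.29 and 6.62 in DN2, 5.16, 4.81, 4.23 and 5.25 in DN3, and 4.83, 5.30, 4.68 and 4.81 in DN4. All DN2 arrays lay above all others. Spi1 fell by 1.55 ± 0.22 (SE, n = 4) from DN2 to DN3 (limma adjusted p = 8.84e-04) and was 1.51 lower in DN4 than in DN2 (limma adjusted p = 3.08e-04).

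Irf8, a factor of dendritic and B cells, read 6.79 to 7.09 in DN2, 6.99 to 7.28 in DN3 and 7.27 to 7.72 in DN4, and rose by 0.64 ± 0.13 (SE, n = 4) from DN2 to DN4 (limma adjusted p = 0.00362), though with no normalization the difference was 0.18 (adjusted p = 0.632). Ifngr1, the ligand-binding chain of the interferon-gamma receptor, fell by 0.92 ± 0.19 from DN2 to DN4 (limma adjusted p = 0.00347) and by 0.69 from DN3 to DN4 (limma adjusted p = 0.0343). The latter ended without DN3 replicates 1, 2 or 3 or DN4 replicates 1, 2 or 4 (adjusted p up to 0.0961). Jak1, a kinase on that receptor, fell by 0.56 ± 0.15 from DN2 to DN4 (limma adjusted p = 0.0149). Without the 3 arrays of lowest median signal, neither Ifngr1 nor Jak1 passed from DN2 to DN4 (adjusted p = 0.0507 and 0.104). Irf1, Irf2, Ifngr2, Jak2 and Socs1 were not called in any comparison of the quantile-normalized fit of 12 arrays without the sorts. Irf4 and Prdm1 were under the filter. With no normalization, Irf2 was called as lower in DN4 than in DN2 (-0.95, limma adjusted p = 0.0468). Socs1 was called as higher there without DN2 replicate 2 (0.55, 0.0421). From DN3 to DN4, Irf8 passed as higher and Jak1 as lower with sorts blocked (limma adjusted p = 0.0211 and 0.046), where 25.2% of all probe sets were called.

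Markers of other cells that make class II were read in the same arrays, over all genes of each list. Their counts stand beside 8.02%, 12.4% and 29.9% of all probe sets called from DN2 to DN3, DN3 to DN4 and DN2 to DN4. Of 14 B cell genes 13 had a probe set used here and 9 were measured, and 0 were called from DN2 to DN3 (2 at an unadjusted p under 0.05), 2 rose from DN3 to DN4, and 1 rose and 1 fell from DN2 to DN4. Their summed signal was 2564 to 3810 in DN2, 3000 to 3235 in DN3 and 4628 to 5195 in DN4, most of it from Ighm, the mu heavy chain gene, which rose by 0.72 ± 0.15 (SE, n = 4) from DN3 to DN4 (limma adjusted p = 0.00854, but 0.112 with no normalization and 0.0576 without the 3 arrays of lowest median signal). Ms4a1, the gene of CD20, read 4.79, 4.42, 4.69 and 5.01 in DN2, 3.63, 3.93, 2.69 and 4.27 in DN3, and 4.13, 4.75, 5.16 and 5.69 in DN4. It rose by 1.31 ± 0.35 from DN3 to DN4 (limma adjusted p = 0.0319), a call that ended without DN3 replicates 1, 2 or 3 or DN4 replicates 2, 3 or 4 (adjusted p up to 0.0865). Ms4a1 was above the filter level on 2 DN2, 0 DN3 and 3 DN4 arrays. Among defining B cell genes, Cd79a was above the filter level on 1 of 12 arrays and Ebf1 on 0, whereas Cd79b was above it on 12 and was lower in DN4 than in DN2 by 0.59 ± 0.16 (limma adjusted p = 0.018, and 0.0522 without DN4 replicate 1 or 0.0505 without DN2 replicate 2).

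Of 12 genes of conventional dendritic cells, 11 had a probe set used here and 5 were measured, and 1 fell from DN2 to DN3 while 0 were called from DN3 to DN4 (3 at an unadjusted p under 0.05) and 2 fell from DN2 to DN4. The shares of all probe sets called in these comparisons were 8.02%, 12.4% and 29.9%. Their summed signal was 163 to 309 in DN2, 76.3 to 120 in DN3 and 55.6 to 228 in DN4, where DN4 replicate 1 was the lowest. Itgax, the gene of CD11c, fell by 2.06 ± 0.25 (SE, n = 4) from DN2 to DN3 (limma adjusted p = 3.04e-04) and stayed low in DN4. It passed the filter only through its 4 DN2 arrays, with 0 DN3 and 0 DN4 arrays above the filter level. The stage means of Itgax were 6.16, 4.10 and 3.51, so the size of its fall is uncertain. Cd83 and Ccr7, genes of mature dendritic cells and of some lymphocytes, correlated with the class II reference at 0.837 and 0.867 over the 12 arrays, against 0.149 for Itgax, 0.268 for Fscn1 and 0.087 for Naaa, the other 3 measured genes of the list. Such values were not particular to this list. Of the measured B cell genes, Cd22 stood at 0.805, Ms4a1 at 0.805, Bank1 at 0.785 and Pou2af1 at 0.767. The rest of that list lay from -0.409 (Pax5) to 0.480 (Blk). Cd83 read 5.89, 4.87, 5.67 and 6.53 in DN2, 4.08, 3.41, 4.73 and 2.88 in DN3, and 3.70, 5.57, 6.44 and 6.13 in DN4, with differences of -1.96 (limma adjusted p = 0.0567) and then 1.68 (0.0761). Without DN4 replicate 1, singled out after the data had been seen, Cd83 passed, as the chain genes did. It was lower in DN3 than in DN2 (limma adjusted p = 0.0149) and higher in DN4 than in DN3 (2.27, 0.0116). Ccr7, at 1.03 from DN3 to DN4 (limma adjusted p = 0.0748), passed as higher in DN4 without that array (1.42, 0.00497) and with sorts blocked (0.0209). Xcr1 was above the filter level on 1 of 12 arrays and Zbtb46 and Flt3 on 2 each.

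The macrophage and monocyte list had 5 of 12 genes measured, with a summed signal of 293 to 369 in DN2, 163 to 200 in DN3 and 109 to 159 in DN4. None rose, and 2, 1 and 2 fell from DN2 to DN3, DN3 to DN4 and DN2 to DN4. Of all probe sets, 4.37%, 7.27% and 13.8% were called lower and 3.65%, 5.17% and 16.1% higher. Lyz2 fell by 1.45 ± 0.29 (SE, n = 4) from DN2 to DN3 (limma adjusted p = 0.00958) and was 2.54 lower in DN4 than in DN2 (limma adjusted p = 6.29e-05), and C1qa and Itgam were under the filter level on all 12 arrays. The plasmacytoid dendritic cell list, with 6 of 8 measured, summed to 2338 to 3330 in DN2, 2278 to 3676 in DN3 and 1643 to 2010 in DN4, with 1, 2 and 1 genes lower and 0, 0 and 1 higher in the same comparisons, and Siglech was above the filter level on 1 array. Most of that sum came from Ly6d (back-transformed stage means of 1524, 1732 and 982), followed by Tcf4 (723, 505 and 347) and Bst2 (365, 359 and 243). The thymic epithelium list, with 10 of 12 measured, summed to 373 to 473, 639 to 841 and 337 to 460, and had 1 gene higher and 1 lower at each of the first 2 steps. In DN3 most of this sum came from Epcam (back-transformed means of 165, 469 and 143). Such sums follow the brightest genes of a list and do not measure the amount of a cell type. Epcam rose by 1.48 ± 0.31 from DN2 to DN3 (limma adjusted p = 0.0107) and fell by 1.67 ± 0.31 from DN3 to DN4 (limma adjusted p = 0.00472, and 0.0764 without the 3 arrays of lowest median signal). 

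In DN4 replicate 1, where H2-Aa and H2-Eb1 were low, the mean level of the dendritic cell list was 3.93 against 4.57 to 5.33 in the other DN4 arrays, and that of the B cell list 6.01 against 6.42 to 6.69. The macrophage list read 4.64 against 4.74 to 5.02, and the plasmacytoid list 7.37 against 7.33 to 7.47. The thymic epithelium list read 4.92 against 5.03 to 5.31. The mean of a list of T lineage and sort markers was also lowest there, at 8.19 against 8.28 to 8.68, but its genes were mixed. Il2ra (6.21), Ptcra (7.62), Cd3g (11.58) and Cd8b1 (7.94) were the lowest of the stage in that array. Cd8a (6.55) was the highest, and Cd44, Rag1 and Cd3e lay within the range of the other DN4 arrays. This array also had the lowest median deposited signal. The part of these marker genes, and of that array's signal, in the class II values was not tested.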

How the data were processed

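Per the labels' protocols, RNA went through RNeasy columns and was biotin-labelled after cDNA synthesis in more than 1 cycle, which can distort rare transcripts. Each deposited intensity is a linear signal of a probe set. The submitters' processing notes name GCOS as the authors' software, while its version and how it scaled the arrays are not given in the sources here.

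The table held 45101 probe sets, of which 64 controls, 932 with several symbols and 9224 not listed with a gene were not used. Signals were quantile-normalized and log2 was taken after adding the 25th percentile (5.56). Probe sets above the table's median on at least 4 arrays (20374) entered a limma 3.58.1 fit (R 4.3.3) of group means over 12 arrays, two-sided, with 9 residual degrees of freedom, or 6 with the sort as a block. The fit was tested on simulated data. Fold changes therefore depend on the offset and on the normalization. The number of arrays limits the precision. Figures used matplotlib 3.10.9.

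Per the labels, equally numbered samples came from 1 pool of cells. Deviations from stage means correlated at 0.26 to 0.36 for the 12 pairs of arrays of a sort and at -0.23 to 0.12 for the 36 pairs of different sorts and stages.

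Members, gene lists and tests were chosen with earlier results of these data known. All member probe sets are named, with the pathway genes and up to 3 of the brightest and 4 of the called genes of each marker list, other markers being added after their values were seen. A list gene is its brightest probe set. Alternatives changed the block, normalization, offset, filter, probe set choice, arrays used, variance moderation and array weights.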

Additional observations from a re-analysis of the deposited data

Results flagged for a closer look

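A value was picked out where the highest or lowest of 4 arrays of a stage stood far from the nearest other array relative to the range of the stage. Over 42 groups of 4 arrays (14 probe sets at 3 stages) 8 values were picked. Chance would give about 1 in 20 if the groups were independent. These groups share arrays and genes, so the 8 cannot be set against that rate. The share picked over all probe sets is not given here. DN4 replicate 1 was the lowest for H2-Aa 1435290_x_at (5.72, nearest 8.28), H2-Aa 1438858_x_at (4.34, nearest 7.16) and H2-Eb1 (5.29, nearest 7.53). DN3 replicate 1 was the lowest for Cd74 (5.50, nearest 5.93), and DN3 replicate 4 for H2-DMa 1459872_x_at (4.13, nearest 4.76). The other 3 values were below the filter level. They were H2-Aa 1443783_x_at in DN2 replicate 2 (2.72), Ciita 1421211_a_at in DN2 replicate 1 (2.66) and Ciita 1447075_at in DN4 replicate 4, which was high (4.04, nearest 2.68). Causes were not tested.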

How the results depend on the processing

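Counts below are of member probe sets called by limma. For DN4 against DN3 the count of 2 became 6 with sorts blocked, 5 with array weights, 6 without the 3 arrays of lowest median signal, and 1 each with arrays centred on their median, no filter, a filter at the 75th percentile (4 members left) or only the 8 arrays compared. It ranged from 0 to 8 with 1 array left out. For DN3 against DN2 the count of 0 became 4 without the 3 arrays and 2 when just the 8 arrays compared were fitted, and ranged from 0 to 3 with 1 array left out. For DN4 against DN2 the count of 2 became 1 with the 75th percentile filter, with 1 probe set per gene and without the 3 arrays, and ranged from 2 to 4 with 1 array left out. The block changed no other count.

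Reversed signs were all of differences that were not called. For DN4 against DN2, centring gave -0.060 and -0.00021 for H2-Aa 1435290_x_at and 1438858_x_at. No normalization gave -0.35, -0.29 and -0.074 for the H2-Aa probe sets, -0.29 and -0.20 for H2-Ab1 1450648_s_at and 1451721_a_at and -0.19 for H2-Eb1. Leaving out 1 array gave -0.23 to 0.75 and -0.14 to 0.85 for those H2-Aa probe sets and -0.039 to 0.38 for H2-Ab1 1450648_s_at, which was -0.0083 without the 3 arrays. For DN3 against DN2, H2-Ab1 1425477_x_at was 0.11 with an offset of 1 and -0.46 to 0.27 with 1 array left out.

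Over all probe sets, 1634, 2534 and 6082 were called for DN3 against DN2, DN4 against DN3 and DN4 against DN2. The block gave 3334, 5131 and 8594, no normalization 774, 4672 and 4727, no filter 1041, 1439 and 4806, and leaving out the 3 arrays 1180, 747 and 2983. Calls that were higher made up 45.5%, 41.6% and 53.8%, against 57.2%, 12.4% and 42.6% with centring. The cause was not tested. Signals near the filter level limit what can be read for Ciita.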
